A study of Homo sapiens with 2 samples.

Results

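The BMP, Nodal and TGF-beta pathway genes were compared between 1 library of wild-type (WT) cells and 1 library of MEIS2-/- cells. The 48 genes were fixed by name as the BMP, GDF, Nodal, activin and TGF-beta ligands, their receptors, SMADs and inhibitors, and the ID targets. All 48 were found among the 17397 genes listed in both libraries. These genes and the gene lists used below were chosen with earlier results of these data known. H1 is a widely used human embryonic stem cell line. WT H1 cells and H1 cells with both MEIS2 alleles disrupted by CRISPR/Cas9 were taken at day 4 of hematopoietic differentiation. Both cultures were given activin A (50 ng/ml) with BMP4 (40 ng/ml) over the first 2 days, and VEGF (40 ng/ml) together with bFGF (50 ng/ml) over the next 2 days. Activin A and BMP4 had thus been withdrawn 2 days before the RNA was taken, and the recombinant proteins themselves leave no transcript to be counted. The MEIS2-/- line was a clone selected with puromycin after lentiviral delivery of Cas9 and the guide, and the labels do not name the clone that was sequenced. With 1 library per genotype there is no replicate error, so no difference was tested and genotype, clone and culture cannot be told apart.

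Most ligands of this family bind a pair of serine/threonine kinase receptors, a type II receptor that activates a type I receptor, which then phosphorylates SMAD proteins. BMP ligands signal through SMAD1, SMAD5 and SMAD9, while Nodal, activin and TGF-beta ligands signal mainly through SMAD2 and SMAD3, and either group enters the nucleus with SMAD4. Secreted antagonists, decoy receptors and inhibitory SMADs restrain the signal, and several of them are themselves targets of it. In the embryo, Nodal and BMP induce and pattern the mesoderm from which blood and endothelium arise, and TGF-beta signaling acts against the later transition from endothelium to blood.

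Levels were given as FPKM, fragment counts scaled to transcript length and to the mapped fragments of the library, which allows levels of different genes to be set side by side. Changes were computed as log2 of the MEIS2-/- value over the WT value after adding 0.1 FPKM to each, for the 13075 genes that reached 1 FPKM in either library. A gene is called lower or higher where it changed at least 2-fold on that scale. The targeted gene MEIS2 was at 10.85 FPKM in WT and 3.44 FPKM in MEIS2-/- cells (log2 change -1.63), and FPKM over a whole gene does not read the edited site. The summed FPKM of the libraries was close, at 447542 in WT and 440651 in MEIS2-/- cells. The median log2 ratio over the 8092 genes that reached 5 FPKM in each library was 0.12, so a pathway gene near 0 lay slightly below the typical gene. Over all 13075 compared genes, 7.97% were lower and 7.84% were higher. Of the fixed lists of cell type markers, endothelium had 10 of 14 compared genes lower and none higher. Its summed level was 1033 FPKM in WT and 473 FPKM in MEIS2-/- cells, and none of its 15 genes was listed at 0. SOX17 of this list went the other way, at 141.01 FPKM in WT and 264.03 FPKM in MEIS2-/- cells (log2 change 0.90). It is also on the list of Nodal targets used below. Of the hematopoiesis list, 5 of 7 compared genes were lower, while RUNX1 and PTPRC (encoding CD45) stayed under 1 FPKM in both libraries. The visceral endoderm list went the other way, with 9 of 11 genes higher and a sum of 482 FPKM in WT and 1068 FPKM in MEIS2-/- cells. Most of that sum was APOA1, at 401.38 FPKM in WT and 879.13 FPKM in MEIS2-/- cells. The list of primitive streak and early mesoderm had 4 of 7 compared genes lower and 2 higher. The part of such shifts in cell type in the pathway values below was not tested. In bulk RNA, fewer cells of a type and less RNA per cell cannot be told apart.

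Of the 48 pathway genes, 44 reached 1 FPKM in at least 1 library. Of these, 9 (20.5%) were lower in MEIS2-/- cells, against 7.97% of all 13075 compared genes, and 4 (9.09%) were higher, against 7.84%. The lower genes were BMP4, GDF3, GDF15, INHBE, TGFB1, TGFB2, ACVRL1, CHRD and BMPER, and the higher genes were NODAL, GREM1, ACVR1 and SMAD1. The median log2 change of the 44 genes was -0.04, beside 0.12 over all compared genes, with 24 genes below 0 and 20 above. The size of change was larger than that, with a median of 0.59 in either direction against 0.38 over all compared genes. Among the 35 pathway genes that reached 5 FPKM in either library, 7 (20%) were lower, against 6.41% of all genes at that level, and 3 (8.57%) were higher, against 5.94%. Of the 18 that reached 20 FPKM, 5 were lower, against 6.36% of all such genes, and 1 was higher, against 5.08%. Of the 7 that reached 100 FPKM, BMP4 and TGFB1 were lower, against 8.03% of all such genes, and none was higher, against 3.72%. With the median log2 ratio set to 0, 10 of the 44 were lower and 4 higher, against 9.15% and 6.37% of all compared genes. At a 1.5-fold line, 12 were lower and 11 higher, against 14.5% and 18% of all compared genes. The 4 genes under 1 FPKM in both libraries were INHBA, INHBB, TGFB3 and BMPR1B.

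**Figure D1:**
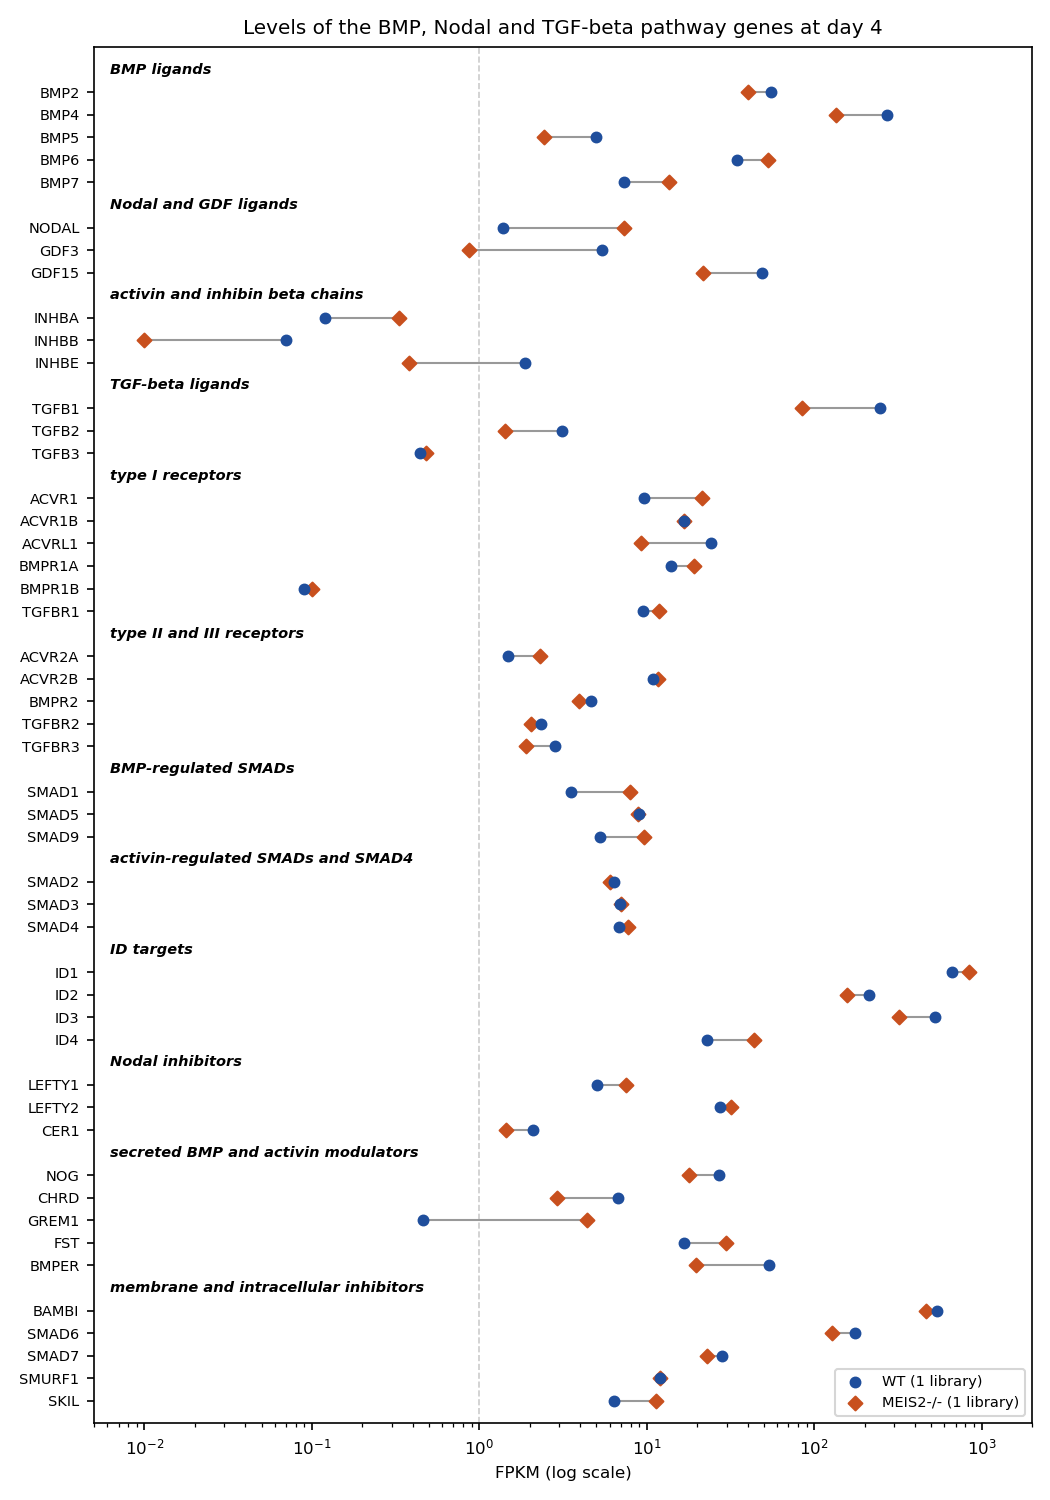
FPKM of the 48 pathway genes on a log axis, 1 row per gene grouped by role, with WT as circles and MEIS2-/- as diamonds (1 library each, so no error bars) and a dashed line at 1 FPKM. ID1, ID2, ID3, BAMBI, BMP4, TGFB1 and SMAD6 lie highest, and among the 44 genes that reached 1 FPKM the longest gaps between the libraries are those of GREM1, GDF3 and NODAL.

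**Figure D2:**
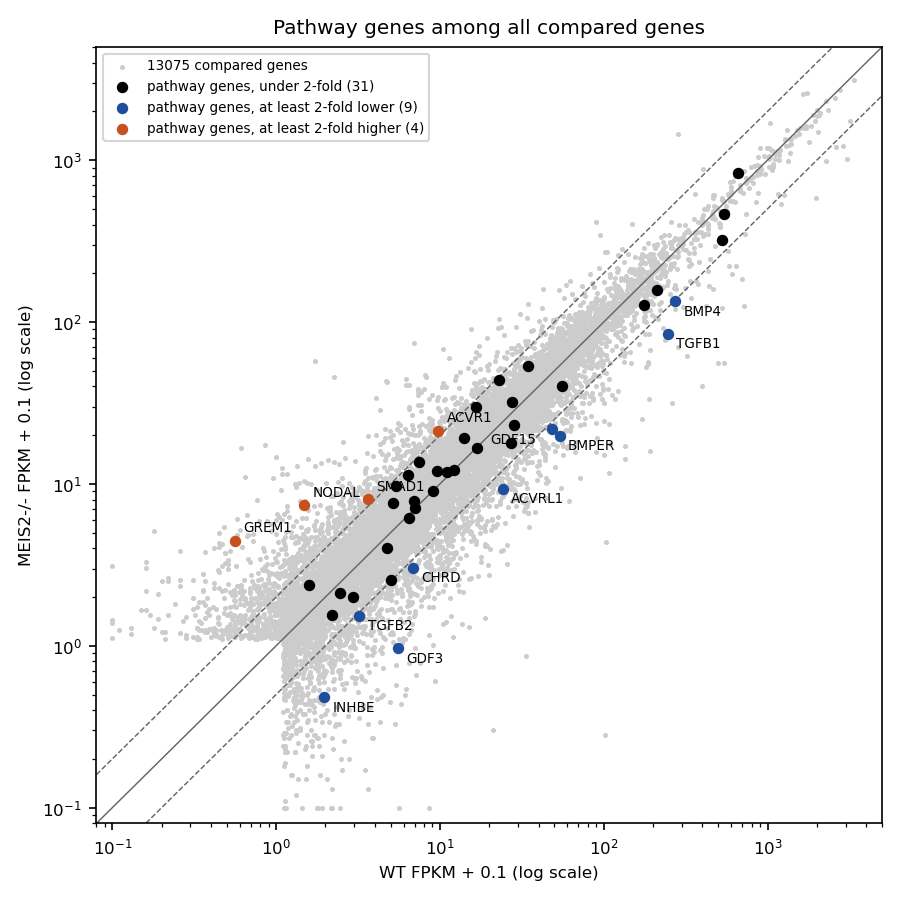
MEIS2-/- against WT values (FPKM + 0.1, both axes log) for the 13075 compared genes in gray and the 44 compared pathway genes in black (under 2-fold), blue (lower) or orange (higher), with a solid line of equality and dashed lines at 2-fold. The 9 lower genes lie below the lower dashed line, with TGFB1 and BMP4 at the highest level, and the 4 higher genes lie above the upper one.

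The genes for secreted proteins and those for receptors and SMADs were counted separately. This split was not among the planned counts, and the ID genes and the membrane and intracellular inhibitors are in neither group. Of the 19 compared genes for ligands and secreted inhibitors, 8 (42.1%) were lower and 2 (10.5%) were higher, against 7.97% and 7.84% of all compared genes, and 4 were within 1.5-fold of WT. Of the 8 lower genes, GDF3 and INHBE were under 1 FPKM in MEIS2-/- cells. With 1 FPKM added, TGFB2 and CHRD of the secreted group and SMAD1 of the other group no longer passed 2-fold. Of the 16 compared genes for receptors, receptor-regulated SMADs and SMAD4, 1 (6.25%) was lower and 2 (12.5%) were higher, which lies near those shares of all compared genes, and 11 were within 1.5-fold. Over all compared genes, 67.5% were within 1.5-fold. The median size of change was 1.02 for the secreted group and 0.28 for the receptor and SMAD group on the log2 scale. Summed over their 14 genes, the ligands came to 682 FPKM in WT and 361 FPKM in MEIS2-/- cells, while the 11 receptors summed to 96.3 FPKM and 100.2 FPKM. These are descriptions of 2 libraries, and the difference between the groups was not tested.

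**Figure D3:**
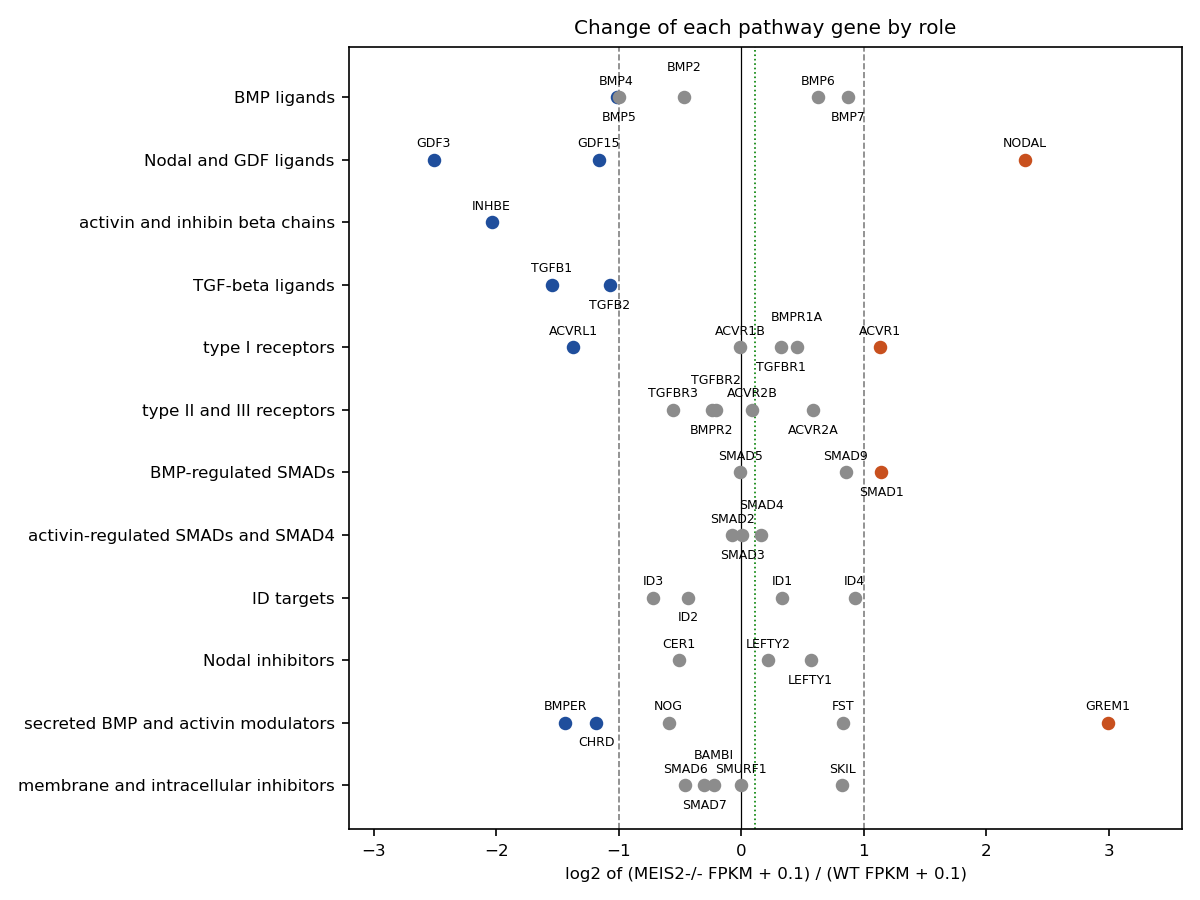
Log2 change of the 44 compared pathway genes by role (x axis, MEIS2-/- over WT with 0.1 FPKM added), with dashed lines at 2-fold, a dotted green line at the library offset of 0.12, lower genes in blue, higher genes in orange and genes under 2-fold in gray. Ligands and secreted modulators spread from GDF3 at -2.51 to GREM1 at 3.00. Receptors and BMP-regulated SMADs spread from ACVRL1 at -1.37 to SMAD1 at 1.14, and SMAD2, SMAD3 and SMAD4 lie between -0.07 and 0.17.

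For members at the ends of these changes, the sequence around the annotated start is shown so that the reader can see which short motifs it holds. GDF3 had the deepest fall, NODAL the largest rise among genes that reached 5 FPKM, TGFB1 the highest level among lower genes with a single start in the table, and SMAD6 is the member whose start region holds the SMAD palindrome. Each sequence comes from RefSeq on GRCh38.p14 and runs 5′ to 3′ along the gene from 250 bases before the start to 50 bases after it. Capitals mark every match, on either strand, to 4 motifs. These were TGACAG, the core motif of MEIS proteins, and AGATAA, which is bound by transcription factors of the GATA family. The others were GGCGCC, an element bound by BMP-regulated SMADs, and the SMAD palindrome GTCTAGAC. No marked match overlaps another.
GDF3, chr12:7695726-7696025, minus strand: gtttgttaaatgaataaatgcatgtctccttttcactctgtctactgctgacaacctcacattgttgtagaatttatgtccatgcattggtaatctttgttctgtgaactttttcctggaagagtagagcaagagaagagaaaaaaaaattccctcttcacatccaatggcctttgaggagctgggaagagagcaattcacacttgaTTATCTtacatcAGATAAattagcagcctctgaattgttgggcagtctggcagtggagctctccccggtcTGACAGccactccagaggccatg
NODAL, chr10:70441632-70441931, minus strand: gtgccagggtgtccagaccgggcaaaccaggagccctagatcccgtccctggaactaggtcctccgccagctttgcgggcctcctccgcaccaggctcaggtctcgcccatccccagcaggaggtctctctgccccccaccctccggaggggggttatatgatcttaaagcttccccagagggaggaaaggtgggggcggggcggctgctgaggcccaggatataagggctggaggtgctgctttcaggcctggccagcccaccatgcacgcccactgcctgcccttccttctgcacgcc
TGFB1, chr19:41353873-41354172, minus strand: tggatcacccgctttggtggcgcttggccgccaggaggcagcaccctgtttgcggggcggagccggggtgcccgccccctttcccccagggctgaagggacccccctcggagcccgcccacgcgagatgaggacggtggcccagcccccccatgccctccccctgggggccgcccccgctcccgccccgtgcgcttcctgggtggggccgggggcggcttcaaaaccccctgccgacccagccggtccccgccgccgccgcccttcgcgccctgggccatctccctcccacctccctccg
SMAD6, chr15:66701986-66702285, plus strand: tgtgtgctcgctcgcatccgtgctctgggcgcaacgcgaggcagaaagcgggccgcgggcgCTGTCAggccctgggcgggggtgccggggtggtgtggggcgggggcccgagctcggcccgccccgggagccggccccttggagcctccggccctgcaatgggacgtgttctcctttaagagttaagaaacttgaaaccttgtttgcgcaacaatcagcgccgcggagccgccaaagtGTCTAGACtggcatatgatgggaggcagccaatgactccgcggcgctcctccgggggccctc
GDF3 holds 2 matches to AGATAA shortly before its start and 1 match to TGACAG after it. NODAL and TGFB1 hold none of the 4 motifs in this window. SMAD6 holds 1 match to TGACAG and the SMAD palindrome.

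Start regions were found for 41 of the 48 genes, with 70 starts in all. At 39 of the 70 starts, the first transcribed bases lay in a GENCODE 29 transcript of the gene, and at the others they did not. TGACAG was present at 11 of these 70 starts (15.7%), against 15.8% of all 35116 starts in the table and 13.25% of the 15562 starts of compared genes. AGATAA was present at 8 of the 70 (11.4%), against 10.3% of all starts and 5.83% of the starts of compared genes. GGCGCC was present at 19 (27.1%), against 19.2% of all starts and 28.9% of the starts of compared genes. The SMAD palindrome was present at 1 of the 70 and at 0.202% of all starts. Among the 10 starts of lower genes TGACAG was present at 1, AGATAA at 2 and GGCGCC at 4. Among the 11 starts of higher genes TGACAG was present at 1, AGATAA at 1 and GGCGCC at 4. Several starts can belong to the same gene. Counted by gene, TGACAG was present at any start of 9 genes, AGATAA of 8 and GGCGCC of 16. ACVRL1, BMP2, BMP7, INHBE, LEFTY1, LEFTY2 and NOG had no entry in the table. A match is a description of letters and not of binding.

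Among the BMP ligands, the summed level was 375 FPKM in WT and 244 FPKM in MEIS2-/- cells. BMP4 (NCBI Gene 652), the ligand used in the medium to induce mesoderm and also made by the cells, was at 272.89 FPKM in WT and 134.75 FPKM in MEIS2-/- cells, a log2 change of -1.02. It was the 219th gene by level in WT cells and the 507th in MEIS2-/- cells. BMP4 therefore stood only just past the 2-fold line, though it lost more FPKM than any other BMP ligand. BMP2, its closest relative, was at 55.46 FPKM and 40.17 FPKM (log2 change -0.46). BMP5 was low in both libraries, at 4.96 FPKM and 2.44 FPKM, with a log2 change of -0.99 just short of the line. The BMP6 and BMP7 values lay on the other side. BMP6 was at 34.46 FPKM in WT and 53.24 FPKM in MEIS2-/- cells (log2 change 0.63), and BMP7 was at 7.34 FPKM and 13.51 FPKM (0.87). The make-up of the group thus shifted, with BMP4 making up 72.7% of the summed BMP ligand FPKM in WT and 55.2% in MEIS2-/- cells, and BMP6 9.19% and 21.8%.

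TGFB1 (NCBI Gene 7040), the main TGF-beta isoform of blood and endothelium, was at 246.39 FPKM in WT and 84.42 FPKM in MEIS2-/- cells, a log2 change of -1.54. It was the 246th gene by level in WT cells and the 893rd in MEIS2-/- cells. No other member lost as large a part of so high a level. TGFB2 was at 3.12 FPKM and 1.43 FPKM (log2 change -1.07), and TGFB3 at 0.44 FPKM and 0.48 FPKM, below the filter. TGFB1 supplied 98.6% of the summed TGF-beta ligand FPKM in WT and 97.8% in MEIS2-/- cells. On GRCh38, 6.64% of the annotated exon bases of TGFB1 overlap HNRNPUL1 on the opposite strand, and for TGFB2 26.2% of its 50-base stretches are shared with the overlapping transcript TGFB2-OT1. The counting is not stated to use strand, so reads in such stretches cannot be assigned to 1 gene with certainty.

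Nodal and the GDF ligands moved apart. NODAL (NCBI Gene 4838), which patterns the early mesoderm and endoderm and is also expressed in pluripotent cells, was at 1.38 FPKM in WT and 7.27 FPKM in MEIS2-/- cells, a log2 change of 2.32. By log2 change it was the 136th from the highest of the 13075 compared genes. GDF3 (NCBI Gene 9573), a related ligand expressed in undifferentiated embryonic stem cells, was at 5.42 FPKM and 0.87 FPKM, a log2 change of -2.51, the 123rd from the lowest, or -1.78 with 1 FPKM added. With 1 FPKM added, the log2 change of NODAL was 1.80. The ratio of NODAL to GDF3 went from 0.255 in WT to 8.36 in MEIS2-/- cells. That second ratio divides by a GDF3 value under 1 FPKM, so its size is uncertain. The fixed pluripotency list had 5 of 6 compared genes higher and none lower, against 7.84% and 7.97% of all compared genes. Its summed level was 362 FPKM in WT and 1677 FPKM in MEIS2-/- cells. Most of that sum was POU5F1 (285.65 FPKM and 1454.14 FPKM), while SOX2 stayed under 1 FPKM in both libraries. GDF3 thus went opposite to that list and NODAL went with it. The part of the list in either value was not tested. For NODAL, 41.2% of the exon bases overlap an annotated gene on the opposite strand, AC022532.1, whose reads could not be told apart without strand.

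GDF15 (NCBI Gene 9518), a divergent family member induced by cell stress, was at 48.51 FPKM in WT and 21.64 FPKM in MEIS2-/- cells, a log2 change of -1.16. Its level made up 87.7% of the summed FPKM of the Nodal and GDF group in WT cells. INHBE (NCBI Gene 83729), an activin and inhibin beta chain made mainly in liver, was at 1.87 FPKM and 0.38 FPKM (log2 change -2.04, or -1.06 with 1 FPKM added). INHBA, the chain that forms activin A, was at 0.12 FPKM and 0.33 FPKM, and INHBB at 0.07 FPKM and 0.01 FPKM, all under the filter. INHBE thus made up most of the low beta chain signal, 90.8% of the summed FPKM in WT and 52.8% in MEIS2-/- cells.

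Among type I receptors, the summed level was 74.0 FPKM in WT and 78.3 FPKM in MEIS2-/- cells, but its make-up differed. ACVRL1 (NCBI Gene 94), also known as ALK1 and typical of endothelium, was at 24.05 FPKM in WT and 9.25 FPKM in MEIS2-/- cells, a log2 change of -1.37. It was the highest type I receptor in WT cells, with 32.5% of the sum, and the second lowest in MEIS2-/- cells, with 11.8%. ACVR1 (NCBI Gene 90), also known as ALK2 and a receptor for BMP6 and BMP7, was at 9.65 FPKM and 21.24 FPKM, a log2 change of 1.13, and became the highest. The ratio of ACVR1 to ACVRL1 was 0.401 in WT and 2.30 in MEIS2-/- cells. The fall of ACVRL1 stands beside that of the endothelium list, whose median log2 change was -1.63, and their relation was not tested.

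The other type I receptors stayed within 1.5-fold. BMPR1A, the main BMP receptor of the epiblast, was at 13.98 FPKM and 19.17 FPKM (log2 change 0.45). ACVR1B, the activin and Nodal receptor, was at 16.74 FPKM and 16.64 FPKM (-0.01), and TGFBR1 at 9.50 FPKM and 11.91 FPKM (0.32). BMPR1B was under the filter, at 0.09 FPKM and 0.10 FPKM. For BMPR1A, 12.2% of the 50-base stretches are shared with other annotated genes, most of them with its pseudogenes.

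None of the 5 type II and III receptors passed 2-fold. ACVR2B led, at 10.97 FPKM in WT and 11.69 FPKM in MEIS2-/- cells. BMPR2 was at 4.66 FPKM and 3.93 FPKM, TGFBR2 at 2.35 FPKM and 2.03 FPKM, the coreceptor TGFBR3 at 2.85 FPKM and 1.91 FPKM, and ACVR2A at 1.49 FPKM and 2.29 FPKM. Their log2 changes ran from -0.55 for TGFBR3 to 0.59 for ACVR2A.

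SMAD2, SMAD3 and SMAD4 were nearly level. SMAD2 was at 6.35 FPKM in WT and 6.04 FPKM in MEIS2-/- cells, SMAD3 at 6.94 FPKM and 6.98 FPKM, and SMAD4, the common partner, at 6.87 FPKM and 7.72 FPKM. The BMP-regulated SMADs differed more. SMAD1 (NCBI Gene 4086) was at 3.55 FPKM and 7.97 FPKM, a log2 change of 1.14, and SMAD9 at 5.27 FPKM and 9.61 FPKM (0.85), while SMAD5 was at 8.94 FPKM and 8.90 FPKM (-0.01). SMAD5 supplied 50.3% of the summed BMP-regulated SMAD FPKM in WT and 33.6% in MEIS2-/- cells, where the 3 genes were close to equal. Transcript levels do not show how much of any SMAD was phosphorylated.

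The ID genes, which encode inhibitors of basic helix-loop-helix factors and are direct targets of BMP signaling, included ID1 as the most abundant member in both libraries. None passed 2-fold, and they did not move as a group. ID1 was at 664.99 FPKM in WT and 837.65 FPKM in MEIS2-/- cells (log2 change 0.33), the 96th and 74th gene by level. ID3 was at 529.13 FPKM and 321.63 FPKM (-0.72), and ID2 at 211.68 FPKM and 156.99 FPKM (-0.43). ID4, the least abundant, was at 22.87 FPKM and 43.59 FPKM (0.93). Their summed level was 1429 FPKM in WT and 1360 FPKM in MEIS2-/- cells, and the ratio of ID1 to ID3 went from 1.26 to 2.60. The sum of the ID genes thus stood at 0.952 times its WT level.

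**Figure D4:**
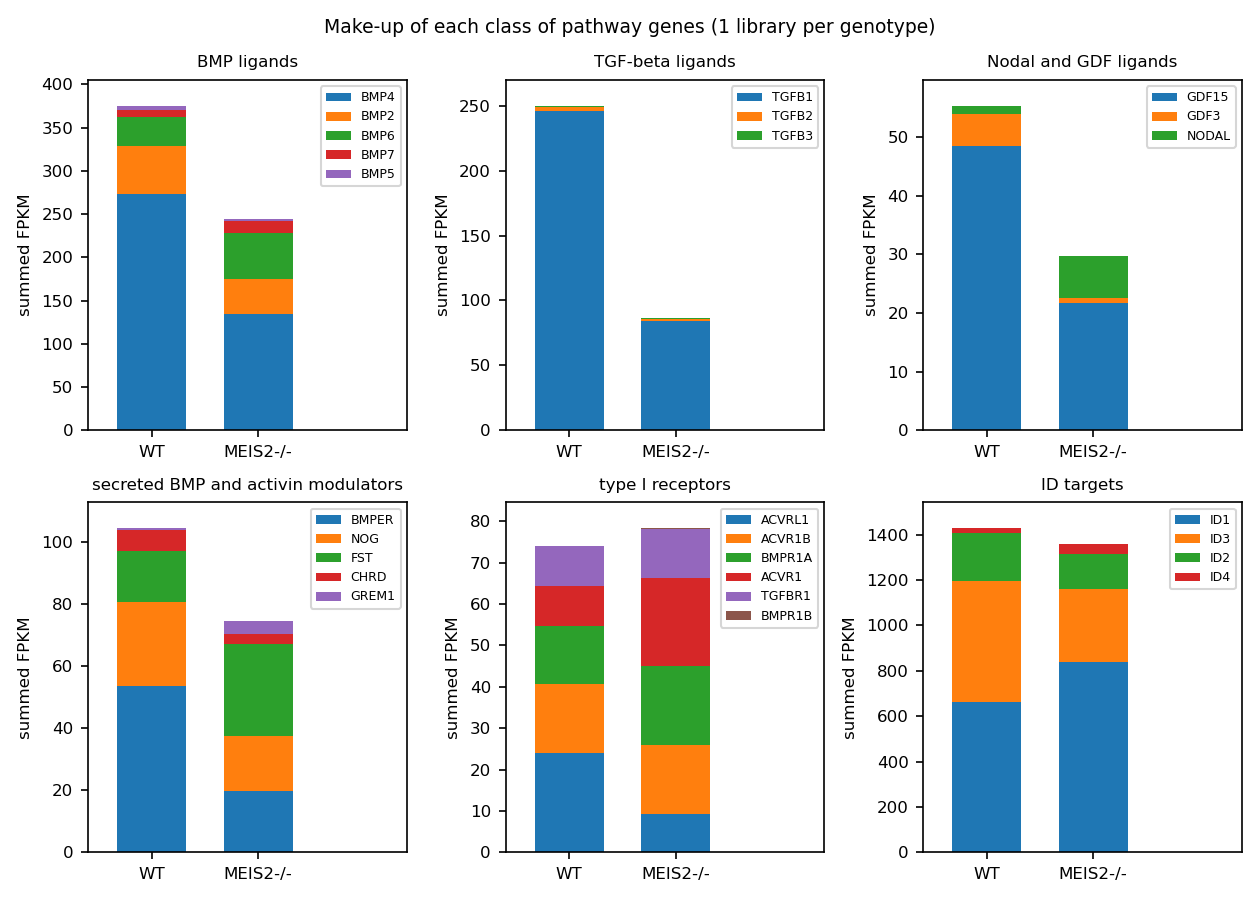
Summed FPKM (linear y axes from 0, each panel with its own scale and gene colors) of 6 classes of pathway genes in the WT and MEIS2-/- libraries, with each bar divided by gene and no error bars since there is 1 library per genotype. BMP4 and TGFB1 make up most of the loss of ligand FPKM, the ID sum stays near its WT level with more ID1 and less ID3, and ACVR1 takes the place of ACVRL1 as the highest type I receptor.

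The inhibitors inside the cell and at its membrane ranged widely in level, and their log2 changes ran from -0.46 to 0.83. BAMBI, a decoy receptor that BMP signaling induces, was at 543.77 FPKM in WT and 465.85 FPKM in MEIS2-/- cells (log2 change -0.22). The inhibitory SMADs followed, with SMAD6 at 175.82 FPKM and 128.11 FPKM (-0.46) and SMAD7 at 28.23 FPKM and 22.91 FPKM (-0.30). SMURF1, a ubiquitin ligase for SMADs, was at 12.07 FPKM and 12.08 FPKM, and SKIL, a SMAD corepressor induced by TGF-beta, at 6.33 FPKM and 11.30 FPKM (0.83). None of these 5 genes passed 2-fold.

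The Nodal inhibitors, themselves targets of Nodal, did not pass 2-fold either. LEFTY2 was at 27.39 FPKM in WT and 31.97 FPKM in MEIS2-/- cells (log2 change 0.22), LEFTY1 at 5.07 FPKM and 7.56 FPKM (0.57), and CER1, which binds Nodal and BMP, at 2.10 FPKM and 1.45 FPKM (-0.51). NODAL rose 5.27-fold in FPKM while LEFTY2 differed 1.17-fold, so the ratio of LEFTY2 to NODAL went from 19.8 to 4.40. LEFTY1 and LEFTY2 are neighboring copies, and 26.8% of the 50-base stretches of LEFTY1 occur in LEFTY2 and 45.3% in the overlapping transcript AL117348.2. How their reads were divided is therefore uncertain.

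The secreted modulators of BMP and activin moved in both directions. BMPER (NCBI Gene 168667), a BMP-binding protein of endothelium and its precursors, was at 53.66 FPKM in WT and 19.79 FPKM in MEIS2-/- cells, a log2 change of -1.43. CHRD (NCBI Gene 8646), encoding the BMP antagonist chordin, was at 6.78 FPKM and 2.93 FPKM (-1.18), with 5.45% of its exon bases overlapped by THPO on the opposite strand. GREM1 (NCBI Gene 26585), encoding another BMP antagonist, was at 0.46 FPKM and 4.37 FPKM, a log2 change of 3.00, the 53rd from the highest, or 1.88 with 1 FPKM added. NOG, encoding noggin, was at 26.93 FPKM and 17.83 FPKM (-0.59), and FST, encoding the activin antagonist follistatin, at 16.58 FPKM and 29.64 FPKM (0.83). BMPER made up 51.4% of their summed FPKM in WT and 26.5% in MEIS2-/- cells, and FST 15.9% and 39.8%. The ratio of BMP4 to NOG was 10.1 in WT and 7.56 in MEIS2-/- cells.

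The other genes of the pathway were taken from a written list of which 60 were found in the tables and 46 reached 1 FPKM. Of the 46, 7 (15.2%) were lower, against 7.97% of all compared genes, and 3 (6.52%) were higher, against 7.84%. None of the 17 intracellular regulators on this list, such as TGIF1, SKI, FOXH1 and SMURF2, passed 2-fold, whereas 4 of the 7 compared ligands were lower and none higher. Of these 4, BMP8A was at 1.42 FPKM in WT and 0.63 FPKM in MEIS2-/- cells. BMP10 was at 2.29 FPKM and 0.74 FPKM. With 1 FPKM added, neither BMP8A (-0.57) nor BMP10 (-0.92) passed 2-fold. INHA, the inhibin alpha chain, was at 5.67 FPKM in WT and 0.34 FPKM in MEIS2-/- cells (log2 change -3.71, or -2.32 with 1 FPKM added). SOST, encoding the BMP and WNT antagonist sclerostin, was at 25.55 FPKM and 3.11 FPKM (-3.00), while its relative SOSTDC1 was at 2.92 FPKM and 13.82 FPKM (2.20). CFC1, a coreceptor for Nodal, was at 39.76 FPKM and 11.77 FPKM (-1.75), and GDF1, a partner of Nodal, at 11.99 FPKM and 4.40 FPKM (-1.43). Reads of CFC1 can be shared with a near-identical copy and those of GDF1 with CERS1, with which it shares a transcript, so both values are uncertain.

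Target genes outside the ID family were read from 3 written lists. Of the 9 compared BMP targets, 2 (22.2%) were lower and 2 (22.2%) were higher, against 7.97% and 7.84% of all compared genes. The lower genes were more abundant, with the homeobox gene MSX1 at 187.93 FPKM in WT and 84.26 FPKM in MEIS2-/- cells (log2 change -1.16) and GATA2, a factor of early blood, at 89.90 FPKM and 39.95 FPKM (-1.17). GATA2 is also on the hematopoiesis list. The higher genes were DLX5, at 0.97 FPKM in WT and 9.01 FPKM in MEIS2-/- cells (log2 change 3.09, or 2.35 with 1 FPKM added), and TFAP2A, at 4.52 FPKM and 19.13 FPKM (2.06). TFAP2A is also on the amnion and trophoblast list, of which 4 of 6 compared genes were higher and whose sum went from 68.6 FPKM to 118 FPKM. The 9 Nodal targets gave the same counts, 2 lower and 2 higher. TBXT, encoding brachyury, was at 2.44 FPKM and 10.74 FPKM (2.09), MIXL1 at 2.33 FPKM and 6.47 FPKM (1.43), and LHX1 at 20.61 FPKM and 5.93 FPKM (-1.78). The other lower target was GSC, at 1.8 FPKM and 0.65 FPKM (-1.34), which did not pass 2-fold with 1 FPKM added. TBXT, MIXL1 and GSC are also on the list of primitive streak and early mesoderm, so they are counted there too.

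Of the 10 compared TGF-beta targets, 3 (30%) were lower and none was higher, against 7.97% and 7.84% of all compared genes. A log2 change below 0 was found for 9 of the 10, and for 5311 of all 13075 compared genes. TGFBI, named for its induction by TGF-beta, was at 31.53 FPKM in WT and 10.37 FPKM in MEIS2-/- cells (log2 change -1.60), and the collagen gene COL1A1 was at 464.09 FPKM and 160.87 FPKM (-1.53). FN1, encoding fibronectin, was the exception on this list, at 899.77 FPKM and 1194.54 FPKM (0.41). SKIL, named above as induced by TGF-beta, is not on the list and was at 6.33 FPKM and 11.3 FPKM (0.83). COL1A1 is also on the list of mesenchyme and lateral plate, of which 6 of 12 genes were lower and none higher. That list summed to 1071 FPKM in WT and 591 FPKM in MEIS2-/- cells, and its part in the TGF-beta targets was not tested.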

How the data were processed

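RNA-seq libraries from day 4 of differentiation, 1 WT and 1 MEIS2-/-, were grouped by the genotype in the labels. The authors deposited FPKM values per NCBI Gene number, rounded to 2 decimals. Sequencing was performed by BGI after Trizol extraction and an Illumina TruSeq preparation, and the submitters' processing notes name BWA, Bowtie, RSEM and hg19 without versions. FPKM is relative to the library total, so large changes in a few genes shift all others. Low FPKM values were compared with multiples of 1 read (agreement 0.172 in WT and 0.329 in MEIS2-/-, where 1 is complete), so whole reads were not recovered, the depth is unknown and no counting interval is given.

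Gene numbers were matched to current symbols with a RefSeq table (17365 of 17397). Log2 changes used a pseudocount of 0.1 FPKM, a filter of 1 FPKM in at least 1 library and a 2-fold line, with no test and no p-value. Alternatives were pseudocounts of 1 and 0.01, no filter, a filter at 5 FPKM, lines at 1.5-fold and 4-fold, a median log2 ratio of 0, and TMM on FPKM (trimming 30% of the log ratios and 5% of the mean levels). The computation was tested on simulated data. The members and lists were chosen with earlier results of these data known. All 48 members are named, as are MEIS2 and, of 16 other pathway and target genes past 2-fold with at least 5 FPKM in 1 library, the 12 with the largest changes. Genes also named are markers (RUNX1, PTPRC, POU5F1, SOX2, SOX17, APOA1), FN1, MSX1, GATA2, GSC, BMP8A, BMP10, CHRDL1, PCSK6 and 4 intracellular regulators. These were chosen after their values were seen. Of the listed genes outside the members, 4 were not analysed here. Overlaps and shared 50-base stretches came from GENCODE 29 on GRCh38. Python 3.11.15, numpy 2.4.6, pandas 2.3.3 and matplotlib 3.10.9 were used.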

Additional observations from a re-analysis of the deposited data

How the results depend on the processing

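The members' counts of 9 lower and 4 higher genes ran from 7 to 10 and from 3 to 4 over the other pseudocounts, filters and scalings. At 1.5-fold 11 members were higher, against 18% of all compared genes, and at 4-fold 2 were lower and 2 higher. For the 4-fold line, the other pseudocounts, no filter and TMM, the share of all compared genes was not computed. Counts at those settings, here and below, therefore cannot be set against such a share. Of the other pathway genes, 3 were higher, which became 1 with a pseudocount of 1 FPKM, 5 with no filter, 1 with a filter at 5 FPKM, 7 at 1.5-fold and 1 at 4-fold, where 2 were lower. Their 7 lower genes became 5 with a pseudocount of 1 FPKM. The filters change the number of genes compared and the lines the size required, while the larger pseudocount shrank CHRDL1 to 0.53 and PCSK6 to 0.82. With a pseudocount of 1 FPKM, TGFB2 (-0.76), CHRD (-0.99) and SMAD1 (0.98) no longer passed 2-fold, and with either scaling BMP5 did (-1.10 with the median at 0, -1.09 with TMM). ACVR2B, SMAD3 and SMURF1 changed sign under either scaling, each from a value near 0. With a pseudocount of 1 FPKM, GREM1 (1.88), GDF3 (-1.78), NODAL (1.80) and INHBE (-1.06) were under 4-fold, and INHA moved to -2.32. Leaving out members that share at least 5% of their 50-base stretches with another gene, chosen after seeing the data, left 8 lower and 4 higher. A value counted as unmoved when it changed by less than 1.2-fold, since no replicate gives a spread. No paired analysis was possible because each genotype has 1 library. FPKM without counts or depth limits what can be said of genes near 1 FPKM.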
